A study of Homo sapiens with 9 samples.

Results

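Gene expression in a human trabecular meshwork line was compared between 6 h of dexamethasone (DEX, a synthetic glucocorticoid) and its own vehicle. The comparison holds 3 DEX libraries and 3 vehicle libraries, 6 of the 9 samples of the study, deposited together in their own table of expected counts per gene. The DEX group received 0.1 µM DEX for 6 h and the vehicle group received the solvent DMSO, and both had been held in serum-free medium for 24 h on collagen-coated plates. All libraries came from 1 commercial immortalized line made from the trabecular meshwork, the ocular filter that lets aqueous humour leave the eye. The study describes the replicates as biological, without saying whether they came from separate days, so the p-values measure the spread between these libraries, part of which can be technical. Of 37247 genes in the table, 15133 had enough counts to be tested.

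Glucocorticoids cross the membrane and bind the glucocorticoid receptor, encoded by NR3C1, which is held in the cytoplasm by chaperones and moves to the nucleus once bound. There it binds palindromic glucocorticoid response elements, mostly in distal enhancers, and raises nearby genes. It also restrains other factors, among them NF-kB and AP-1, which drive cytokine genes. In the trabecular meshwork, long glucocorticoid exposure is known to alter the extracellular matrix and to raise eye pressure in some people, the basis of steroid-induced glaucoma.

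Promoter sequences are given first, because motifs bound by the receptor and by NF-kB can be read from them. RefSeq promoters on GRCh38.p14, the 250 bases before and 50 after each start, were matched to 11095 tested genes. A relaxed glucocorticoid response element, GNACANNNTGTNC, which reads the same on both strands, was searched in that window. It was present in 23 of the 11095 promoters (0.207%), in 6 of 793 promoters of genes called higher (0.757%) and in 3 of 407 of genes called lower (0.737%). None of the 26 matched promoters among the 30 largest rises named below held it, and the strict form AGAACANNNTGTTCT was in none of the 11095. The 6 matches in genes called higher are shown in capitals, on the strand of the gene.
TRIM63: GAACAGGCTGTTC
MAP3K6: GCACAGGCTGTTC
EPHA4: GCACAAGCTGTTC
TXNIP: GCACACCGTGTCC
CMKLR2: GTACAGTATGTTC
FOXN3: GAACATCTTGTGC
The log2 fold change was 1.80 for TRIM63, 0.44 for MAP3K6, 0.36 for EPHA4, 0.36 for TXNIP, 0.36 for CMKLR2 and 0.27 for FOXN3. The call of TRIM63 is described with the FOXO targets. That of CMKLR2 was lost without DEX 2, vehicle 2 or vehicle 3 (0.30, 0.33 and 0.32), and with DESeq2 or a replicate block (0.36). That of FOXN3 was lost without vehicle 2 (0.25). These genes were picked after their values were seen, and a match is a stretch of letters, not a measured binding site.

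The NF-kB motif GGGANTTTCC, searched on both strands, was in 68 of the 11095 promoters (0.613%), in 5 of 793 of genes called higher (0.631%) and in 4 of 407 of genes called lower (0.983%). Among 56 promoters of genes lower by more than 1.5-fold it was in 3 (5.36%), those of FAM187A, CXCL6 and GBP4. CXCL6, a neutrophil-attracting chemokine, fell in the test, and its log2 fold change was -0.67 (adjusted p = 0.00103). TXNIP, an inhibitor of thioredoxin and of glucose uptake, rose 1.28-fold (adjusted p = 2.18e-05). The 250 bases before the RefSeq start are shown for both, with the response element of TXNIP and the NF-kB motif of CXCL6 in capitals. The TXNIP stretch is chr1:145996580-145996829 on the minus strand and the CXCL6 stretch is chr4:73836428-73836677 on the plus strand (GRCh38.p14).
TXNIP: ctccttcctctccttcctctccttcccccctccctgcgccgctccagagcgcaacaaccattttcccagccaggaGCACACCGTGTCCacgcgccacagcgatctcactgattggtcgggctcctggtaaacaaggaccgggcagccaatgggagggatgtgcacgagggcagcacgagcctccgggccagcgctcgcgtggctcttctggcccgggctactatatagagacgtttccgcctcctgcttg
CXCL6: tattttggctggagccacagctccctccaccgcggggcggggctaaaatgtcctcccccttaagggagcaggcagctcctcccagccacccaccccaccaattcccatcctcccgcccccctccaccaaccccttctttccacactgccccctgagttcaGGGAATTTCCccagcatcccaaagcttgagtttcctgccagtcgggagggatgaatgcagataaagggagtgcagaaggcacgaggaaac
The element in TXNIP began 175 bases before the start and the motif in CXCL6 90 bases before it. For the other searched motifs, both strands read, AP-1 (TGANTCA) was in 4.59% of the 11095 promoters and in 5.30% and 7.13% of those called higher and lower. The cAMP response element TGACGTCA was in 3.19% against 3.15% and 2.70%, and the E-box CACGTG in 9.84% against 11.6% and 5.90%. In the 56 promoters of genes lower by more than 1.5-fold, AP-1 was in 8.93% and the E-box in 3.57%. The relaxed glucocorticoid response element was in 1.79% of these 56 and the cAMP response element in 0%. Among the 83 promoters of genes higher by more than 2-fold, AP-1 was in 7.23% and the E-box in 9.64%. The relaxed glucocorticoid response element was in 1 of these 83, and the cAMP response element and the NF-kB motif were in 0%. Differences between these shares were not tested.

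The libraries held 19326830 to 27337259 counts. On principal components, the first (34.0% of the variance) separated the 3 DEX from the 3 vehicle libraries. The second (20.1%) set DEX 3 apart from DEX 1 and DEX 2 and vehicle 3 from vehicle 1 and vehicle 2. Within groups, the chi-square per degree of freedom between libraries was 3.18 to 8.30, highest between vehicle 1 and vehicle 3, against 8.98 to 18.9 between groups, and no pair of libraries agreed within sampling noise. Of 20 trabecular meshwork markers 16 were tested, with a summed level of 4903 to 5110 CPM (counts scaled to a common library size) in vehicle and 5137 to 5146 CPM in DEX libraries. MYOC, which encodes myocilin and is a defining gene of the tissue, had 0 to 6 counts per library, and AQP1, ANGPTL7 and FABP4 were likewise too low to test. Of the markers of other cell types, summed levels in vehicle and DEX libraries were 15.7 to 16.5 and 16.1 to 17.5 CPM for endothelium, 28.3 to 30.2 and 28.1 to 30.8 CPM for immune cells and 6.82 to 8.16 and 7.39 to 7.98 CPM for melanocytes and Schwann cells. Smooth muscle and pericyte markers summed to 663 to 682 and 670 to 688 CPM, and epithelial markers to 585 to 610 and 477 to 491 CPM. KRT18, a keratin of simple epithelia also made by many cultured cells, accounted for most of the latter and fell by 0.48 in log2 units (SE 0.04, adjusted p = 2.58e-06). Of the 8 tested epithelial markers it was the only stable call. KRT7, another keratin, was called higher (0.28, adjusted p = 0.0187), a call lost without DEX 1 or vehicle 2 (0.23 and 0.27). ELF3, an epithelial transcription factor below 1 CPM, was called lower (-1.45, adjusted p = 0.0364), a call lost without DEX 1, DEX 2, vehicle 1 or vehicle 2 (-1.25, -1.18, -1.35 and -1.46). In such bulk samples, fewer cells of a type and less RNA per cell cannot be told apart.

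DEX changed 1530 of the 15133 tested genes (10.1%), 1006 upwards (6.65%) and 524 downwards (3.46%). Rises were larger than falls: 123 genes rose by more than 2-fold (0.813%) and 20 fell by more than 2-fold (0.132%), and 27 genes rose but none fell by more than 4-fold. Most changes were small, with a median log2 fold change of 0.38 among genes that rose and -0.32 among those that fell, and -0.01 over all tested genes. The 3 DEX libraries lay above the 3 vehicle libraries for all 1006 genes called higher and below them for 521 of the 524 called lower, whereas 28.2% of all tested genes had groups that did not overlap. Of the 123 genes that rose by more than 2-fold, 67 were among the 3784 tested genes of lowest level and 16 among the 3783 of highest level. With a correction for GC content and gene length the split was 1066 higher and 904 lower. Leaving out vehicle 2 or DEX 2 gave 983 and 994 called genes, and 283 and 294 of them were lower. Without vehicle 1 the 20 genes that fell by more than 2-fold were 31. In every one of 15 alternative analyses that tested the gene, 593 of the 1006 rises and 199 of the 524 falls were called again in the same direction. These are referred to as stable calls below.

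**Figure D1:**
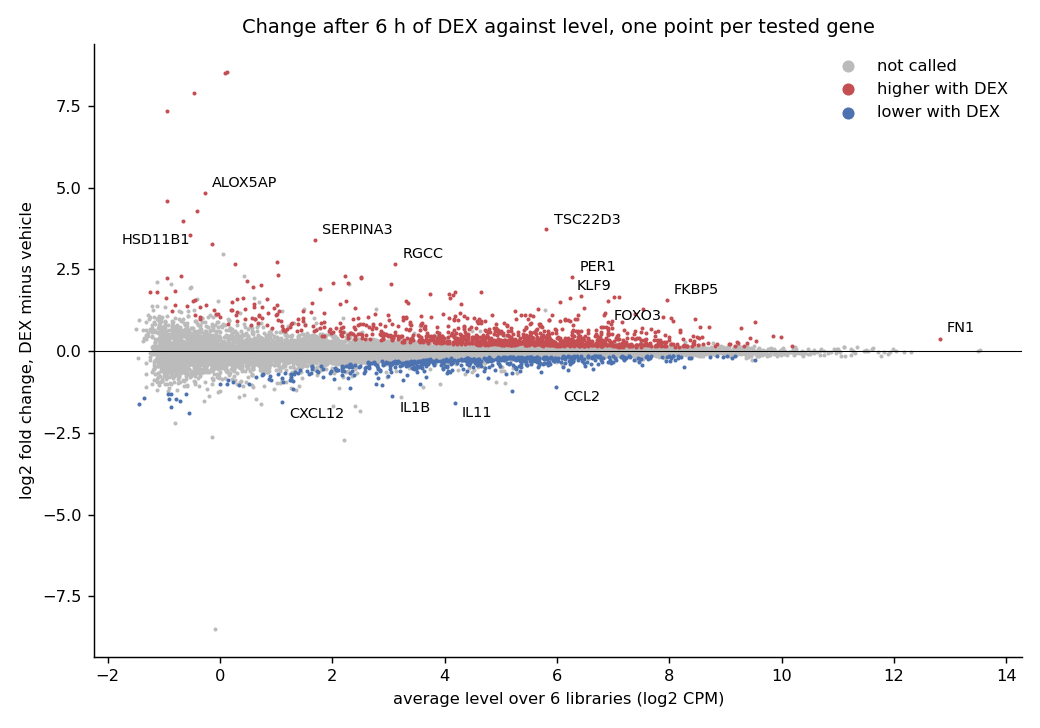
Log2 fold change (DEX minus vehicle, y axis) against the average level over 6 libraries (log2 CPM, x axis) for each tested gene, with the 1006 genes called higher in red and the 524 called lower in blue. Rises reach further from 0 than falls, and TSC22D3 combines a large rise with a high level.

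Of the 5 genes chosen to mark the response, TSC22D3, PER1, FKBP5 and SERPINA3 rose and IL11 fell. TSC22D3 encodes GILZ, a glucocorticoid-induced protein that restrains NF-kB and AP-1. TSC22D3 stood at 7.21, 7.60 and 8.49 CPM in vehicle 1 to 3 and at 100.5, 109 and 100.05 CPM in DEX 1 to 3, a rise of 13.2-fold (log2 fold change 3.73, SE 0.07, adjusted p = 1.99e-13). PER1, a repressor of the circadian clock and a direct receptor target, rose 4.85-fold. The PER1 level was 27.1, 26.4 and 24.8 CPM in vehicle 1 to 3 and 133, 132 and 116 CPM in DEX 1 to 3. FKBP5 encodes a chaperone partner that lowers the receptor's affinity for hormone. FKBP5 measured 121, 118 and 131 CPM in vehicle and 379, 363 and 368 CPM in DEX libraries 1 to 3, and it rose 2.99-fold. SERPINA3, a secreted inhibitor of serine proteases, rose 10.6-fold from a low level. For SERPINA3, vehicle 1 to 3 held 0.772, 0.362 and 0.415 CPM and DEX 1 to 3 held 4.94, 5.19 and 6.52 CPM. IL11, a cytokine of the interleukin 6 family, fell by 1.57 in log2 units (SE 0.13, adjusted p = 9.45e-05). IL11 was at 31.0, 29.3 and 22.03 CPM in vehicle 1 to 3 and at 10.1, 8.81 and 8.71 CPM in DEX 1 to 3. In none of these 5 did the groups overlap, and each was a stable call.

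Of 24 textbook glucocorticoid targets 19 were tested, and 18 of them rose, 0 fell and all 18 were stable, with a median log2 fold change of 1.60. The list was drawn up from genes known to respond, with earlier results of these data known, so its share is not independent evidence. Among them were the transcription factors KLF9 (3.11-fold), KLF15 (4.90-fold), CEBPD (2.92-fold) and ZBTB16 (6.38-fold), and ERRFI1 (3.23-fold), an inhibitor of the EGF receptor. KLF9 represses transcription of many genes and is induced by the receptor in several tissues. KLF9 stood at 36.7, 35.5 and 36.5 CPM in vehicle 1 to 3 and at 122, 111 and 105 CPM in DEX 1 to 3. The phosphatase DUSP1, which switches off stress kinases, rose 1.86-fold from 83.6 ± 7.8 to 156 ± 14 CPM (adjusted p = 0.000196). SGK1, a kinase that controls sodium transport, was the only tested member that did not pass. The SGK1 level was 77.8, 79.8 and 67.6 CPM in vehicle 1 to 3 and 104, 105 and 75.9 CPM in DEX 1 to 3, so DEX 3 lay among the vehicle libraries (log2 fold change 0.34, SE 0.16, adjusted p = 0.294). SGK1 was called higher in 3 of 15 alternatives, among them without DEX 3 (0.48), with an adjusted p over the alternatives of 0.00024 to 0.535. The liver genes TAT, PCK1 and IGFBP1 and the siderophore-binding LCN2 had at most 9 counts in any library and were not tested. PCK1, the rate-limiting enzyme of gluconeogenesis, had 9, 8 and 5 counts in DEX and 0, 2 and 1 in vehicle libraries 1 to 3, and it was called higher when no filter on low counts was applied (log2 fold change 2.58, SE 0.80, adjusted p = 0.0198).

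**Figure D2:**
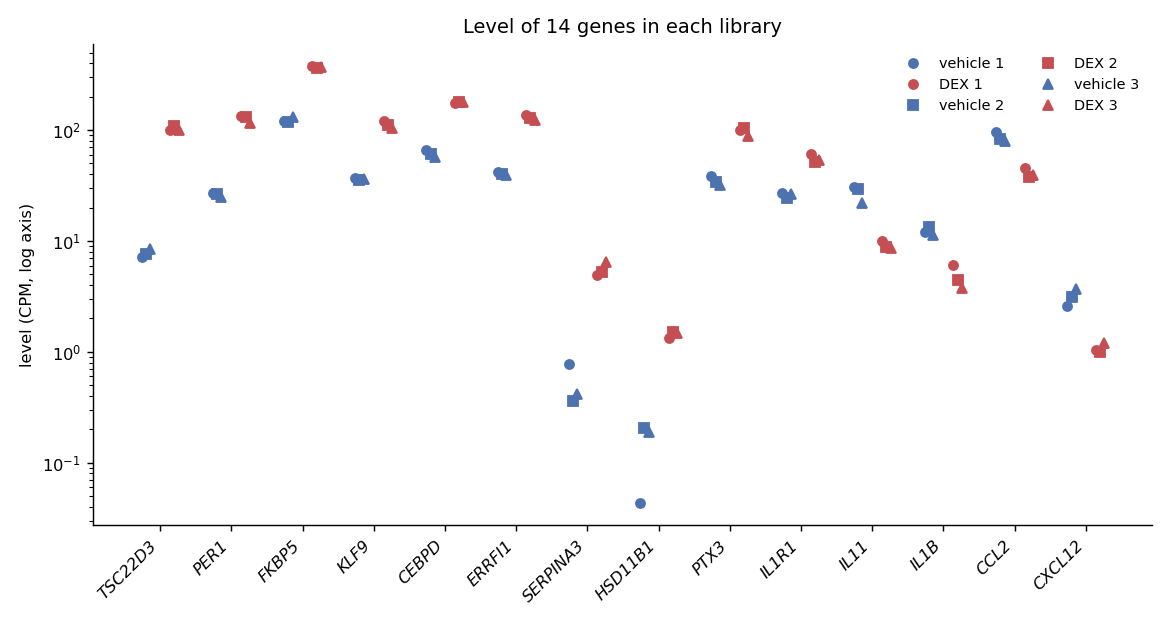
Level of 14 genes in CPM (log y axis), with vehicle libraries in blue and DEX libraries in red and a symbol for each replicate number. The groups do not overlap for any of the 14. TSC22D3 sits at 7.21 to 8.49 CPM in vehicle and 100.05 to 109 CPM in DEX libraries, and IL11 at 22.03 to 31.0 CPM in vehicle and 8.71 to 10.1 CPM in DEX libraries.

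Of 23 genes of the receptor system 6 rose and 0 fell, 17 did not pass, and the median log2 fold change was 0.02. HSD11B1 encodes 11-beta-hydroxysteroid dehydrogenase 1, which converts inactive cortisone to active cortisol, and lies on chromosome 1 (209686178 to 209734950, GRCh38). HSD11B1 measured 0.0429, 0.207 and 0.189 CPM in vehicle and 1.33, 1.51 and 1.47 CPM in DEX libraries 1 to 3, a rise of 9.62-fold (SE 0.37 for the log2 value, adjusted p = 3.52e-05) on 10 counts in vehicle and 111 in DEX libraries in all. H6PD, which supplies that enzyme with its cofactor NADPH in the endoplasmic reticulum, rose 1.21-fold from 47.4 ± 1.1 to 57.4 ± 1.6 CPM (adjusted p = 0.00138). NCOA1, a coactivator of liganded nuclear receptors, rose 1.39-fold from 37.7 ± 2.1 to 52.4 ± 0.23 CPM (adjusted p = 2.45e-05). These 3 rises were the stable ones, and without DEX 1 the count of rises was 3. Without vehicle 1, 1 member was called lower. For NR3C1 itself vehicle 1 to 3 held 79.3, 84.4 and 87.9 CPM and DEX 1 to 3 81.6, 77.6 and 79.4 CPM, the groups overlapped and the test did not pass (log2 fold change -0.08, SE 0.05, adjusted p = 0.377). It was called lower after the GC and length correction (-0.14, adjusted p = 0.0205 in edgeR) and in none of the other 14 alternatives, where the highest adjusted p was 0.657. The mineralocorticoid receptor NR3C2, at 1.74 ± 0.021 and 2.18 ± 0.39 CPM, did not pass (adjusted p = 0.338).

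Inhibitors of inflammatory signalling changed in both directions. Of 22 tested genes that restrain NF-kB or cytokine signalling 9 rose (40.9%) and 4 fell (18.2%), with 7 rises and 1 fall stable. Of the genes on any list 18.7% rose and 9.67% fell, and of all tested genes 6.65% and 3.46%. The median log2 fold change of the 22 genes was 0.01. Their summed level was 1102 to 1180 CPM in vehicle and 1149 to 1186 CPM in DEX libraries. The 4 falls were 1 without DEX 2 and 2 without vehicle 1 or vehicle 2. SLPI, a secreted inhibitor of neutrophil elastase, rose 4.04-fold from 0.606 ± 0.14 to 2.47 ± 0.23 CPM (adjusted p = 3.28e-05). IRAK3, a kinase-dead brake on interleukin 1 and Toll-like receptor signalling, rose 2.36-fold (adjusted p = 0.000759), and SOCS1, which blocks JAK kinases, 2.02-fold (adjusted p = 0.000728). NFKBIA encodes the inhibitor that holds NF-kB in the cytoplasm. For NFKBIA, vehicle 1 to 3 held 66.3, 59.6 and 56.5 CPM and DEX 1 to 3 held 99.6, 91.9 and 95.4 CPM, and it rose 1.57-fold. ZFP36, an RNA-binding protein that destabilizes cytokine mRNAs, rose 1.47-fold (adjusted p = 3.94e-05). TNFAIP3, which encodes the ubiquitin-editing enzyme A20, rose 1.66-fold (adjusted p = 0.00768) but was lost when vehicle 1 was left out (log2 fold change 0.75). The stable fall was BCL3, a nuclear partner of NF-kB subunits, which fell by 0.62 in log2 units (SE 0.08, adjusted p = 0.000132). The falls of NFKBIE, IRAK2 and NFKBIZ were not stable.

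Cytokine and chemokine genes that passed the test fell. Of 19 tested interleukins and related cytokines 5 fell and 0 rose, 3 of them stable, with a median log2 fold change of -0.19. The 5 falls were 3 without DEX 2, DEX 3, vehicle 2 or vehicle 3, and 1 gene was called higher without DEX 2. IL1B, a central inflammatory cytokine, fell by 1.36 in log2 units (SE 0.14, adjusted p = 6.98e-05). IL1B was at 12.1, 13.2 and 11.2 CPM in vehicle 1 to 3 and at 6.02, 4.46 and 3.78 CPM in DEX 1 to 3. LIF, another interleukin 6 family cytokine, fell by 0.62 (SE 0.08), from 25.5 ± 2.0 to 16.6 ± 1.3 CPM. IL6 itself did not pass in the analysis of all 6 libraries. IL6 stood at 6.18, 6.05 and 5.05 CPM in vehicle 1 to 3 and at 4.57, 4.09 and 2.47 CPM in DEX 1 to 3, so that the groups did not overlap (log2 fold change -0.63, SE 0.20, adjusted p = 0.0742). It was called lower in 4 of 15 alternatives, among them with no filter on low counts and without DEX 1 (-0.80), and the adjusted p over the alternatives was 0.000107 to 0.227 (edgeR, DESeq2 and voom). Of 16 tested chemokines 5 fell and 0 rose, 3 of them stable, with a median of -0.47, and without DEX 2 the count was 3. Without DEX 3 or vehicle 1, 2 and 1 chemokines were called higher. CXCL12, a chemokine of stromal cells, fell by 1.54 (SE 0.20, adjusted p = 0.000105). The CXCL12 level was 2.57, 3.15 and 3.70 CPM in vehicle 1 to 3 and 1.04, 0.995 and 1.195 CPM in DEX 1 to 3. CCL2, which attracts monocytes, fell by 1.09 (SE 0.08). CCL2 measured 95.4, 83.6 and 79.9 CPM in vehicle and 45.2, 37.4 and 39.2 CPM in DEX libraries 1 to 3. CXCL6, whose promoter is shown above, was at 8.92, 9.25 and 7.36 CPM in vehicle and 5.81, 5.27 and 4.90 CPM in DEX libraries. CXCL8 and CXCL1, neutrophil chemokines, stood at -0.47 and -0.51 in log2 units, with SE of 0.15 and 0.14, which did not pass (adjusted p = 0.134 and 0.0597). Both were called lower in some alternatives, CXCL8 in 5 and CXCL1 in 6 of 15, among them DESeq2, no filter on low counts and the analysis without DEX 1 (-0.61 and -0.66). Over the alternatives the adjusted p was 3.51e-05 to 0.325 for CXCL8 and 4.43e-10 to 0.184 for CXCL1 (edgeR, DESeq2 and voom).

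Of 20 tested genes of adhesion and innate immunity 6 fell and 1 rose, and all 7 calls were stable. The falls were TNFAIP2 (-0.996 on the log2 scale), the checkpoint ligand CD274 (-0.72), the leukocyte adhesion molecule ICAM1 (-0.53), the transcription factor IRF1 (-0.53) and the NF-kB subunits RELB (-0.47) and NFKB2 (-0.33), with SE of 0.04 to 0.12. For IRF1, vehicle 1 to 3 held 46.5, 45.4 and 44.9 CPM and DEX 1 to 3 held 31.7, 31.8 and 31.3 CPM. The spread within each group was small beside the difference of the groups (adjusted p = 4.12e-06). The rise was PTX3, a soluble pattern-recognition protein that binds complement and matrix. PTX3 was at 38.6, 33.9 and 32.0 CPM in vehicle 1 to 3 and at 100.5, 105 and 88.2 CPM in DEX 1 to 3, and it rose 2.81-fold (adjusted p = 1.16e-06). Of 18 complement genes 1 rose and 0 fell, and that call was not stable: CD55, a complement inhibitor, had a log2 fold change of 0.19 and was lost without DEX 1, DEX 2, vehicle 2 or vehicle 3 (0.15, 0.17, 0.20 and 0.17). The CD55 call was lost with a replicate block as well (0.19). Without vehicle 1, 2 complement genes were called higher and 1 lower, and without vehicle 2, 1 was called lower.

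Interferon-stimulated genes differed among the vehicle libraries. Vehicle 1 held the lowest of the 3 vehicle values in 28 of the 31 tested genes of the list, and the summed level was 1088, 1359 and 1603 CPM in vehicle 1 to 3 and 1125, 986 and 1084 CPM in DEX 1 to 3. OAS1, an antiviral enzyme that senses double-stranded RNA, shows the spread. OAS1 stood at 6.18, 13.8 and 20.4 CPM in vehicle 1 to 3 and at 5.94, 4.31 and 5.09 CPM in DEX 1 to 3. Vehicle 1 was close to the DEX libraries, and the test did not pass (log2 fold change -1.41, SE 0.52, adjusted p = 0.22). Without vehicle 1 it was called lower (-1.76), the only one of 15 alternatives that did so, and over them the adjusted p was 0.00414 to 0.441. MX1, an antiviral GTPase, had 14.8, 39.4 and 64.2 CPM in vehicle and 25.9, 17.5 and 18.9 CPM in DEX libraries, so that vehicle 1 lay below all DEX libraries (adjusted p = 0.459). In the test 6 of the 31 genes fell and 0 rose, and 5 falls were stable, those of OASL (-0.67 on the log2 scale), ISG20 (-0.67), GBP3 (-0.54), GBP2 (-0.39) and GBP1 (-0.35). GBP1 encodes a guanylate-binding protein that attacks intracellular pathogens. The GBP1 level was 54.3, 63.8 and 65.4 CPM in vehicle 1 to 3 and 49.0, 47.3 and 47.6 CPM in DEX 1 to 3. For these 5 genes vehicle 1 was above every DEX library as well. Without vehicle 1 the list had 16 falls. The part of the difference between vehicle libraries in these results was not tested.

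**Figure D3:**
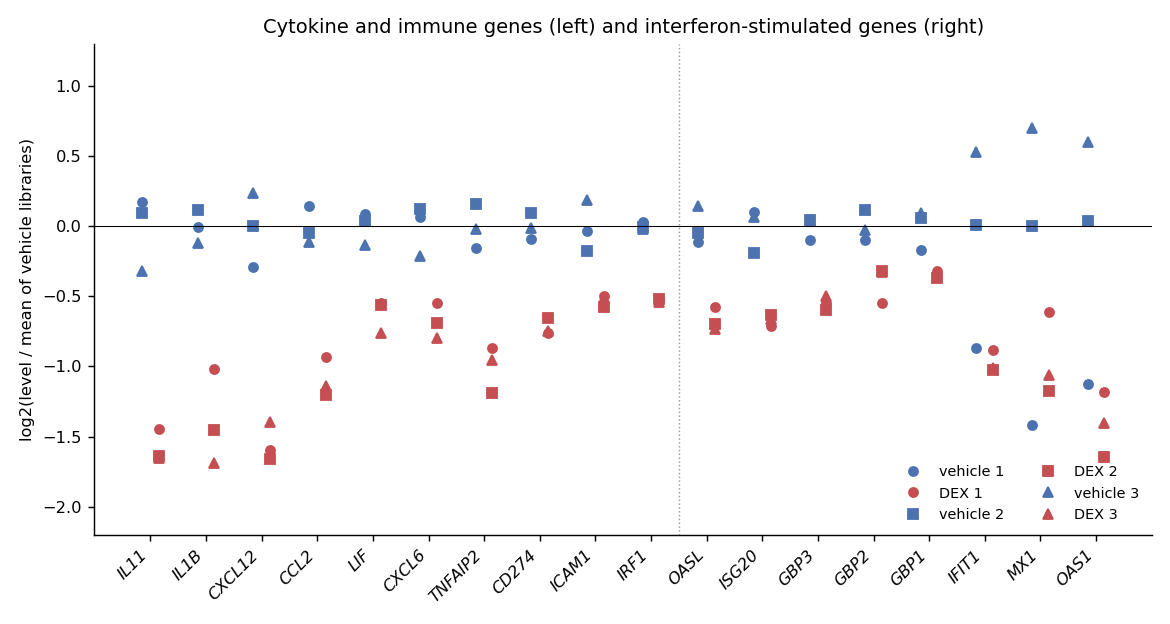
Level in each library relative to the mean of the vehicle libraries (log2 ratio, y axis) for 10 cytokine and immune genes and 8 interferon-stimulated genes, vehicle in blue and DEX in red. The left group separates in every library, whereas IFIT1, MX1 and OAS1 on the right have vehicle 1 among or near the DEX libraries.

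Of 32 tested receptors for cytokines 7 rose (21.9%) and 3 fell (9.38%), beside 6.65% and 3.46% of all tested genes and 18.7% and 9.67% of the genes on any list. The median log2 fold change was 0.02, and 5 rises and 1 fall were stable. IL1R1, the signalling receptor for interleukin 1, rose 2.13-fold (adjusted p = 8.9e-08). IL1R1 measured 27.1, 24.2 and 26.4 CPM in vehicle and 60.7, 51.9 and 53.4 CPM in DEX libraries 1 to 3. IL6R, the ligand-binding chain of the interleukin 6 receptor, rose 1.97-fold and IL6ST, its shared signalling chain gp130, 1.34-fold (adjusted p = 4.32e-07 and 0.00249). TNFRSF21, a death-domain receptor, rose 1.98-fold from 55.0 ± 2.0 to 109 ± 2.3 CPM, and TNFRSF12A, the receptor for TWEAK, fell by 0.58 (SE 0.07, adjusted p = 8.11e-05).

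Lipid mediators and proteases of clotting also changed. ALOX5AP, the helper protein of leukotriene synthesis, had 1, 0 and 2 counts in vehicle 1 to 3 and 32, 31 and 44 in DEX 1 to 3. The ratio of the group totals was 32.0 with a 95% exact interval of 10.6 to 157, which covers counting error only (adjusted p = 8.39e-06). ALOX5, the enzyme that it serves, had at most 1 count per library. TBXAS1, thromboxane synthase, rose 2.64-fold from 1.04 ± 0.14 to 2.76 ± 0.22 CPM (adjusted p = 0.000182), and PTGER2, a prostaglandin E2 receptor, 1.75-fold (adjusted p = 0.000258). PTGES, the inducible prostaglandin E synthase, fell by 0.41 (SE 0.06, adjusted p = 0.000173). Of 16 tested coagulation and fibrinolysis genes 5 rose and 2 fell, all stable. F2RL1, a receptor activated by trypsin-like proteases, rose 4.20-fold. For F2RL1, vehicle 1 to 3 held 2.19, 1.71 and 1.47 CPM and DEX 1 to 3 held 7.22, 7.74 and 7.56 CPM. PLAT, the plasminogen activator of tissue type, rose 1.68-fold (adjusted p = 1.66e-05), whereas urokinase (PLAU) fell by 0.66 and its receptor (PLAUR) by 0.40 in log2 units (SE 0.09 and 0.07).

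Transcription factors changed in several families. The 1293 tested genes on any of the 64 lists were called higher in 18.7% and lower in 9.67% of cases, above the 6.65% and 3.46% of all genes, so the shares of single lists are to be read against both. Of 15 tested KLF factors 7 rose and 1 fell, with 4 rises stable. The 7 rises were 4 without DEX 1 or vehicle 2, and the falls were 0 without DEX 1, DEX 2, DEX 3 or vehicle 2 and 2 without vehicle 3. The stable ones were KLF15, KLF9, KLF6 (1.89-fold, from 186 ± 9.9 to 352 ± 32 CPM) and KLF7 (1.75-fold). CEBPB, which like CEBPD drives acute-phase genes, rose 1.33-fold (adjusted p = 2.69e-05). Of 13 AP-1 factors 4 fell and 1 rose. FOSL1 fell by 0.65 and JUNB by 0.40 in log2 units (SE 0.06 and 0.06, adjusted p = 2.72e-06 and 0.000567), BATF2 fell by 1.89 from under 1.5 CPM, and FOSL2 rose 1.39-fold (adjusted p = 4.28e-06). Without DEX 3 the AP-1 rises were 4 and without vehicle 1 they were 2. Of 11 tested early growth response, NR4A and IER genes 4 fell, and 2 of the falls were stable: EGR1 fell by 0.36 (SE 0.04) and IER2 by 0.42 (SE 0.07). Without DEX 3, 1 gene of these families was called higher.

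Of 40 tested developmental regulators 12 rose and 4 fell, with 10 rises and 2 falls stable. TBX3, a T-box repressor, rose 2.11-fold from 13.0 ± 0.51 to 27.4 ± 3.0 CPM, and FOXC2, a forkhead factor of the anterior eye, 2.15-fold (adjusted p = 6.72e-07 and 0.000433). SNAI2 rose 1.88-fold, TWIST1 1.67-fold and ZEB2 1.34-fold, each a regulator of epithelial to mesenchymal transition (adjusted p = 1.95e-07, 6.72e-07 and 0.000339). HES1, a repressor downstream of NOTCH, fell by 0.81 (SE 0.11, adjusted p = 0.000207), and HEY1, another NOTCH target, rose 2.16-fold (adjusted p = 0.00217). The falls were 2 without DEX 2 or vehicle 2. In the clock list 9 of 23 genes rose and 1 fell, with 4 rises and the fall stable. Besides PER1, the stable rises were NPAS2 (1.92-fold), an activator of the clock, PER2 (1.497-fold) and CRY2 (1.31-fold), both repressors. Without vehicle 3, 2 clock genes were called lower. Of nuclear receptors, the vitamin D receptor VDR fell by 0.68 (SE 0.12, adjusted p = 0.00184).

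FOXO targets and insulin signalling genes that passed the test rose. FOXO factors are held out of the nucleus by insulin signalling and drive genes of protein breakdown and fasting metabolism. Of 33 genes, all tested, 16 rose (48.5%) and 0 fell, 14 of the rises were stable, and the median log2 fold change was 0.25. Called higher and lower were 18.7% and 9.67% of the genes on any list and 6.65% and 3.46% of all tested genes. FOXO3 lies on chromosome 6 (108559835 to 108684774, GRCh38). FOXO3 was at 73.6, 69.5 and 73.1 CPM in vehicle 1 to 3 and at 161, 155 and 153 CPM in DEX 1 to 3, a rise of 2.17-fold (SE 0.04 for the log2 value, adjusted p = 7.63e-10). FOXO1 rose 1.63-fold (adjusted p = 4.26e-06). The insulin receptor substrates IRS1 and IRS2, which carry the signal from the receptor, rose 2.36-fold and 1.90-fold. IRS1 stood at 21.1, 24.2 and 22.3 CPM in vehicle 1 to 3 and at 57.7, 50.5 and 51.4 CPM in DEX 1 to 3. PIK3R1, the regulatory subunit of PI3 kinase that limits insulin signalling when in excess, rose 1.81-fold (adjusted p = 2.4e-07). FBXO32 encodes atrogin-1, a ubiquitin ligase known from muscle wasting. The FBXO32 level was 37.3, 39.1 and 36.8 CPM in vehicle 1 to 3 and 83.1, 75.4 and 85.2 CPM in DEX 1 to 3, a rise of 2.15-fold. CBLB, another ubiquitin ligase, rose 1.81-fold, CITED2 1.90-fold, DDIT4, an inhibitor of mTORC1, 1.55-fold, and the pseudokinases TRIB2 and TRIB1 1.65-fold and 1.44-fold. TRIM63, the muscle ligase MuRF1, was near the detection limit at 0.343, 0.103 and 0.0377 CPM in vehicle and 0.623, 0.663 and 0.424 CPM in DEX libraries (log2 fold change 1.80, SE 0.53, adjusted p = 0.0474). Its call was lost without DEX 1, DEX 2, DEX 3, vehicle 2 or vehicle 3 (1.74, 1.67, 1.98, 1.62 and 1.27). AKT1 and AKT2, kinases of the pathway, did not pass (log2 fold changes 0.03 and -0.05, SE 0.04 and 0.04, adjusted p = 0.732 and 0.54).

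**Figure D4:**
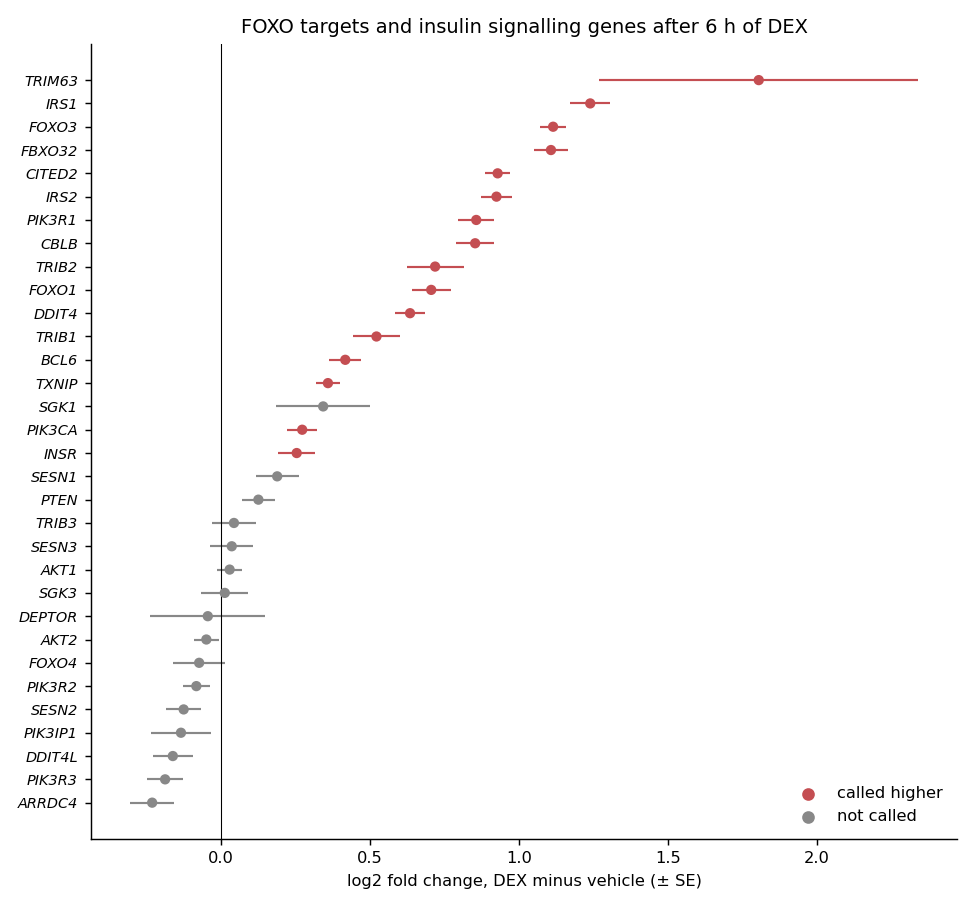
Log2 fold change (DEX minus vehicle, x axis, with SE as bars) for 32 of the 33 genes of the FOXO and insulin list, called genes in red. Of the 32, 16 were called higher and none lower. TRIM63 has the widest SE (0.53).

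Genes of glycogen, amino acid and lipid metabolism rose in part, at shares near that of the genes on any list. Called higher were 19.0%, 22.7% and 19.2% of their tested members, beside 18.7% of the genes on any list and 6.65% of all tested genes. The median log2 fold changes were 0.06, 0.11 and 0.03. Of 21 tested genes of glycogen and gluconeogenesis 4 rose and 0 fell, all stable. UGP2, which makes UDP-glucose for glycogen and glycan synthesis, lies on chromosome 2 (63840940 to 63891562, GRCh38). UGP2 measured 107, 108 and 107 CPM in vehicle and 267, 269 and 249.1 CPM in DEX libraries 1 to 3, a rise of 2.44-fold (adjusted p = 1.38e-10). PYGB, the brain form of glycogen phosphorylase, which releases glucose from glycogen, rose 1.99-fold, its activating kinase subunit PHKA1 1.73-fold and pyruvate carboxylase (PC) 1.24-fold (adjusted p = 2.34e-09, 1.27e-05 and 0.00254). All 5 called members of 22 amino acid genes rose and were stable. SLC7A2, a carrier of arginine and lysine, rose 3.16-fold. For SLC7A2, vehicle 1 to 3 held 58.4, 62.2 and 65.4 CPM and DEX 1 to 3 held 213, 200.1 and 175 CPM. The glutamine carrier SLC38A2 rose 1.63-fold, glutamine synthetase (GLUL) 1.55-fold and the cystine carrier SLC7A11 1.46-fold (adjusted p = 4.32e-07, 6.42e-08 and 2.72e-06).

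Of 26 tested lipid genes 5 rose stably and 1 fell. ANGPTL4, an inhibitor of lipoprotein lipase, rose 3.04-fold from 0.813 ± 0.12 to 2.50 ± 0.26 CPM, ACSL1, which activates fatty acids, 1.62-fold, and the cholesterol exporter ABCA1 1.33-fold (adjusted p = 0.000113, 1.77e-06 and 0.00259). The fall was PLIN3 (log2 fold change -0.17), a lipid droplet coat protein, and it was lost without DEX 1, DEX 2, vehicle 1 or vehicle 2 (-0.14, -0.18, -0.14 and -0.17). PDK4, which blocks glucose oxidation in fasting, had 9, 12 and 16 counts in DEX and 2, 1 and 3 in vehicle libraries 1 to 3. It was too low to test with the filter and was called higher without it (log2 fold change 2.41, SE 0.60, adjusted p = 0.00125). Of 28 genes of cholesterol and fatty acid synthesis 4 fell and 2 rose, with INSIG1 (-0.26 on the log2 scale), which retains the sterol sensor, the stable fall, and without DEX 2 the falls were 1. Antioxidant genes rose in 7 of 22 members, 5 of them stable. They included NFE2L2, the master regulator NRF2 (1.33-fold), and its targets TXNRD1 (1.39-fold, to 1062 ± 25 CPM) and GCLC (1.40-fold), with adjusted p of 1.49e-05, 2.72e-06 and 3.57e-05. Without vehicle 3, 3 members were called lower.

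Signals of growth factors moved in both directions. Of 14 tested EGF system genes 5 fell and 1 rose. The stable falls were HBEGF, a membrane-bound ligand (-0.74 on the log2 scale, SE 0.09), the receptor ERBB3 (-0.54, SE 0.11) and LRIG1, an inhibitor of the receptors (-0.34, SE 0.05). ERRFI1, also an inhibitor, was the rise. ERRFI1 was at 42.1, 39.8 and 39.0 CPM in vehicle 1 to 3 and at 137, 129 and 124 CPM in DEX 1 to 3. The 5 falls were 3 without DEX 1, DEX 3, vehicle 2 or vehicle 3. DUSP5, which switches off nuclear ERK, rose 1.95-fold from 39.3 ± 2.6 to 76.7 ± 4.1 CPM (adjusted p = 5.69e-08). Of 27 genes of the TGF-beta system 8 rose and 2 fell, with 7 rises and 1 fall stable, and without DEX 2 or vehicle 1 the falls were 1. Rises were found in LTBP1, which stores latent TGF-beta in the matrix (1.97-fold), FSTL3, a trap for activins (1.84-fold), and the receptors TGFBR2 (1.40-fold) and TGFBR3 (1.38-fold). INHBA, the activin A subunit, fell by 0.82 (SE 0.12, adjusted p = 0.00466). INHBA stood at 36.8, 38.1 and 30.7 CPM in vehicle 1 to 3 and at 21.1, 21.995 and 16.5 CPM in DEX 1 to 3. BMP2, a bone morphogenetic protein, rose 2.30-fold from 1.78 ± 0.25 to 4.08 ± 0.15 CPM, with an adjusted p of 0.000104.

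Of 27 tested WNT genes 6 rose (22.2%) and 3 fell (11.1%), with 5 rises and 3 falls stable. These shares were near the 18.7% and 9.67% of the genes on any list, and the median log2 fold change was -0.01. Over all tested genes the shares were 6.65% and 3.46%. The receptor ROR1 rose 1.78-fold, the secreted antagonist DKK1 1.60-fold and the ligand WNT5B 1.38-fold (adjusted p = 1.23e-06, 0.000331 and 5.18e-05). The receptor FZD2 fell by 0.50 and the ligands WNT2 and WNT2B by 0.60 and 0.43 in log2 units (SE 0.06, 0.13 and 0.05). Targets of YAP and TEAD, the factors of mechanical signalling, rose in 8 of 23 members (34.8%) and fell in 1 (4.35%). Of these calls 7 rises and the fall were stable, and the median log2 fold change was 0.14. CCN2, the matricellular connective tissue growth factor, rose 1.51-fold from 143 ± 2.0 to 217 ± 3.3 CPM, CCN1 1.27-fold and the cofactor VGLL3 1.301-fold (adjusted p = 1.05e-07, 4.3e-05 and 0.00356). CCN4, another of that family, rose 2.80-fold from 1.54 ± 0.22 to 4.37 ± 0.97 CPM (adjusted p = 9.21e-05). AJUBA was the fall (-0.49 on the log2 scale), a LIM protein that binds the Hippo kinases.

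Matrix genes rose by little. Of 50 tested structural matrix genes 14 rose and 0 fell, 5 of the rises were stable, and the median log2 fold change was 0.12. The 14 rises were 5 without DEX 2, 9 without vehicle 1 and 8 without vehicle 2. Fibronectin (FN1), the most abundant of the genes named here, spread within its groups. The FN1 level was 5818, 6324 and 6789.8 CPM in vehicle 1 to 3 and 8729, 7985 and 7578 CPM in DEX 1 to 3, a rise of 1.28-fold (adjusted p = 0.00262). The other stable rises were the collagens COL4A6 (1.31-fold) and COL6A3 (1.22-fold), fibrillin 1 (FBN1, 1.28-fold) and laminin alpha 4 (LAMA4, 1.21-fold). SMOC1, a calcium-binding protein of basement membranes, fell by 0.99 (SE 0.08). SMOC1 measured 15.1, 17.0 and 15.5 CPM in vehicle and 7.72, 8.33 and 7.75 CPM in DEX libraries 1 to 3. The shares over the genes on any list were 18.7% higher and 9.67% lower, and over all tested genes 6.65% and 3.46%. Of 30 tested matrix proteases 5 rose (16.7%) and 1 fell (3.33%), and none of these calls was stable. ADAMTS9 had the largest change of them (2.32-fold, adjusted p = 0.00762) and was lost with DESeq2. The 5 were 2 without DEX 1 or vehicle 2, 1 without DEX 2 and 3 without DEX 3, and the falls were 0 without DEX 1, DEX 3, vehicle 1 or vehicle 2. MMP1 and MMP3, collagenase and stromelysin, had 5 to 9 and 3 to 6 counts per library and were not tested.

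Integrins, receptors for matrix, rose in 5 of 18 tested members, 4 of them stable, and 1 fell. ITGA10, a collagen-binding chain, rose 4.79-fold. For ITGA10, vehicle 1 to 3 held 1.54, 2.02 and 2.11 CPM and DEX 1 to 3 held 7.51, 10.6 and 9.10 CPM. ITGA5, the fibronectin receptor chain, rose 1.67-fold from 280.0 ± 4.5 to 467 ± 15 CPM, and ITGB3 1.39-fold (adjusted p = 2.93e-08 and 0.000806). The fall, ITGA7 (log2 fold change -0.18), was lost without DEX 1 or vehicle 2 (-0.15 and -0.19). Of 9 tested caveolar genes 5 rose and 1 fell, with 3 rises stable, and without DEX 2 or vehicle 2 the rises were 3. Without DEX 1 the falls were 0. CAVIN2, which shapes caveolae, rose 2.14-fold and caveolin 1 (CAV1), whose region is linked to glaucoma risk, 1.23-fold (adjusted p = 8.77e-09 and 0.000214). Of 41 genes of the actin cytoskeleton and its control 7 rose and 4 fell, with 4 rises and 3 falls stable, and without DEX 2 the rises were 4. The shares called higher and lower, 17.1% and 9.76%, were near the 18.7% and 9.67% of the genes on any list. Of all tested genes 6.65% and 3.46% were called, and the median log2 fold change of the 41 genes was 0.02. RHOB, a small GTPase of endosomes, rose 1.52-fold, and ARHGAP29 and calponin 1 (CNN1) fell by 0.43 and 0.33 in log2 units (SE 0.04 and 0.05).

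Receptors and channels held some of the largest changes, in both directions. Of 39 tested genes of G protein-coupled receptors and their signalling 8 rose (20.5%) and 6 fell (15.4%), with 6 rises and 2 falls stable. Of the genes on any list 18.7% rose and 9.67% fell, and of all tested genes 6.65% and 3.46%. The median log2 fold change of the 39 genes was 0.03. S1PR3, a receptor for sphingosine 1-phosphate that couples to cell contraction, rose 2.51-fold from 50.5 ± 1.6 to 127 ± 6.0 CPM (adjusted p = 3.85e-10). HTR1B, a serotonin receptor that lowers cAMP, rose 5.03-fold. HTR1B was at 0.472, 1.03 and 0.453 CPM in vehicle 1 to 3 and at 3.28, 3.02 and 3.28 CPM in DEX 1 to 3. RGS2, which shortens signalling through Gq, rose 3.50-fold (adjusted p = 2.26e-09), the phosphodiesterase PDE4D, which degrades cAMP, 2.02-fold, and AKAP12, an anchor of protein kinase A, 1.61-fold. ADORA2A, an adenosine receptor that raises cAMP, fell by 0.78 (SE 0.15, adjusted p = 0.00358). Also called lower were GPRC5C, ADORA1, RGS3, GRK5 and BDKRB1, of which RGS3 was stable. Of 26 genes of phosphodiesterases and cAMP signalling 3 rose (11.5%) and 2 fell (7.69%). Of 25 tested potassium channel genes 4 rose, and the stable rise was KCNH5, a voltage-gated channel of the ether-a-go-go family (6.59-fold). Without DEX 2 the count was 2. KCNH5 stood at 0.429, 0.568 and 0.490 CPM in vehicle 1 to 3 and at 3.78, 3.09 and 2.97 CPM in DEX 1 to 3. The sodium channel subunit SCNN1A, a target of corticosteroids in kidney and airway, rose 2.55-fold from 0.881 ± 0.091 to 2.26 ± 0.56 CPM (adjusted p = 0.00141). ATP1B1, a chain of the sodium pump, rose 1.23-fold (adjusted p = 0.000363). TRPC4, a cation channel, fell by 1.16 (SE 0.18, adjusted p = 0.000559). Of 31 tested genes of other channels and pumps 4 rose (12.9%) and 2 fell (6.45%).

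Growth and survival genes changed in both directions. Of 24 tested genes of cyclins, kinase inhibitors and MYC 4 rose (16.7%) and 2 fell (8.33%), with 3 rises and 2 falls stable. The shares were near the 18.7% and 9.67% of the genes on any list, beside 6.65% and 3.46% of all tested genes. RGCC, a regulator of cyclin-dependent kinase 1, rose 6.39-fold. The RGCC level was 3.002, 1.86 and 1.92 CPM in vehicle 1 to 3 and 13.7, 14.7 and 15.1 CPM in DEX 1 to 3. MYC, the growth-promoting factor, rose 1.80-fold. MYC measured 91.7, 88.0 and 87.6 CPM in vehicle and 165, 162 and 154 CPM in DEX libraries 1 to 3. Cyclin D1 (CCND1) fell by 0.33 and the inhibitor CDKN2C by 0.31 in log2 units (SE 0.05 and 0.05). Of 31 cell cycle genes 6 fell (19.4%) and 0 rose, beside falls in 9.67% of the genes on any list and 3.46% of all tested genes. The 3 stable falls were AURKA at -0.27, CCNB1 at -0.22 and CCNB2 at -0.20 on the log2 scale. Without DEX 1, DEX 2 or vehicle 2 the falls were 3. The survival genes BCL2L1, MCL1 and CFLAR rose 1.304-fold, 1.24-fold and 1.23-fold (adjusted p = 0.000228, 9.49e-05 and 0.00178). None of 13 mitochondrially encoded genes was called in the edgeR analysis of all 6 libraries, and 1 of them was called lower without DEX 3 or vehicle 3.

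Genes tied to steroid effects in the trabecular meshwork and to glaucoma were counted apart. Of 20 steroid genes of this tissue 13 were tested, 9 rose and 0 fell, and 8 rises were stable. The list shares TSC22D3, FKBP5 and other members with the textbook targets. CRISPLD2, a secreted protein that binds lipopolysaccharide, rose 1.92-fold and MAOA, which degrades monoamines, 1.85-fold (adjusted p = 1.16e-08 and 0.000744). ANGPTL7 and SAA1, both known to rise in this tissue under glucocorticoids, had 3 to 11 and 0 to 9 counts per library and were not tested. Of 25 tested glaucoma genes 7 rose (28.0%) and 2 fell (8.0%), with 4 rises and 1 fall stable and a median log2 fold change of 0.05. The genes on any list rose in 18.7% and fell in 9.67% of cases, and all tested genes in 6.65% and 3.46%. Without DEX 1 or vehicle 2 the rises of glaucoma genes were 4. The matrix genes THBS1 and SVEP1 rose 1.56-fold and 1.44-fold (adjusted p = 6.42e-08 and 8.99e-05), and AFAP1, an actin-binding protein, fell by 0.39 in log2 units (SE 0.05, adjusted p = 0.000121). Without DEX 2, DEX 3 or vehicle 2 the falls of glaucoma genes were 1.

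**Figure D5:**
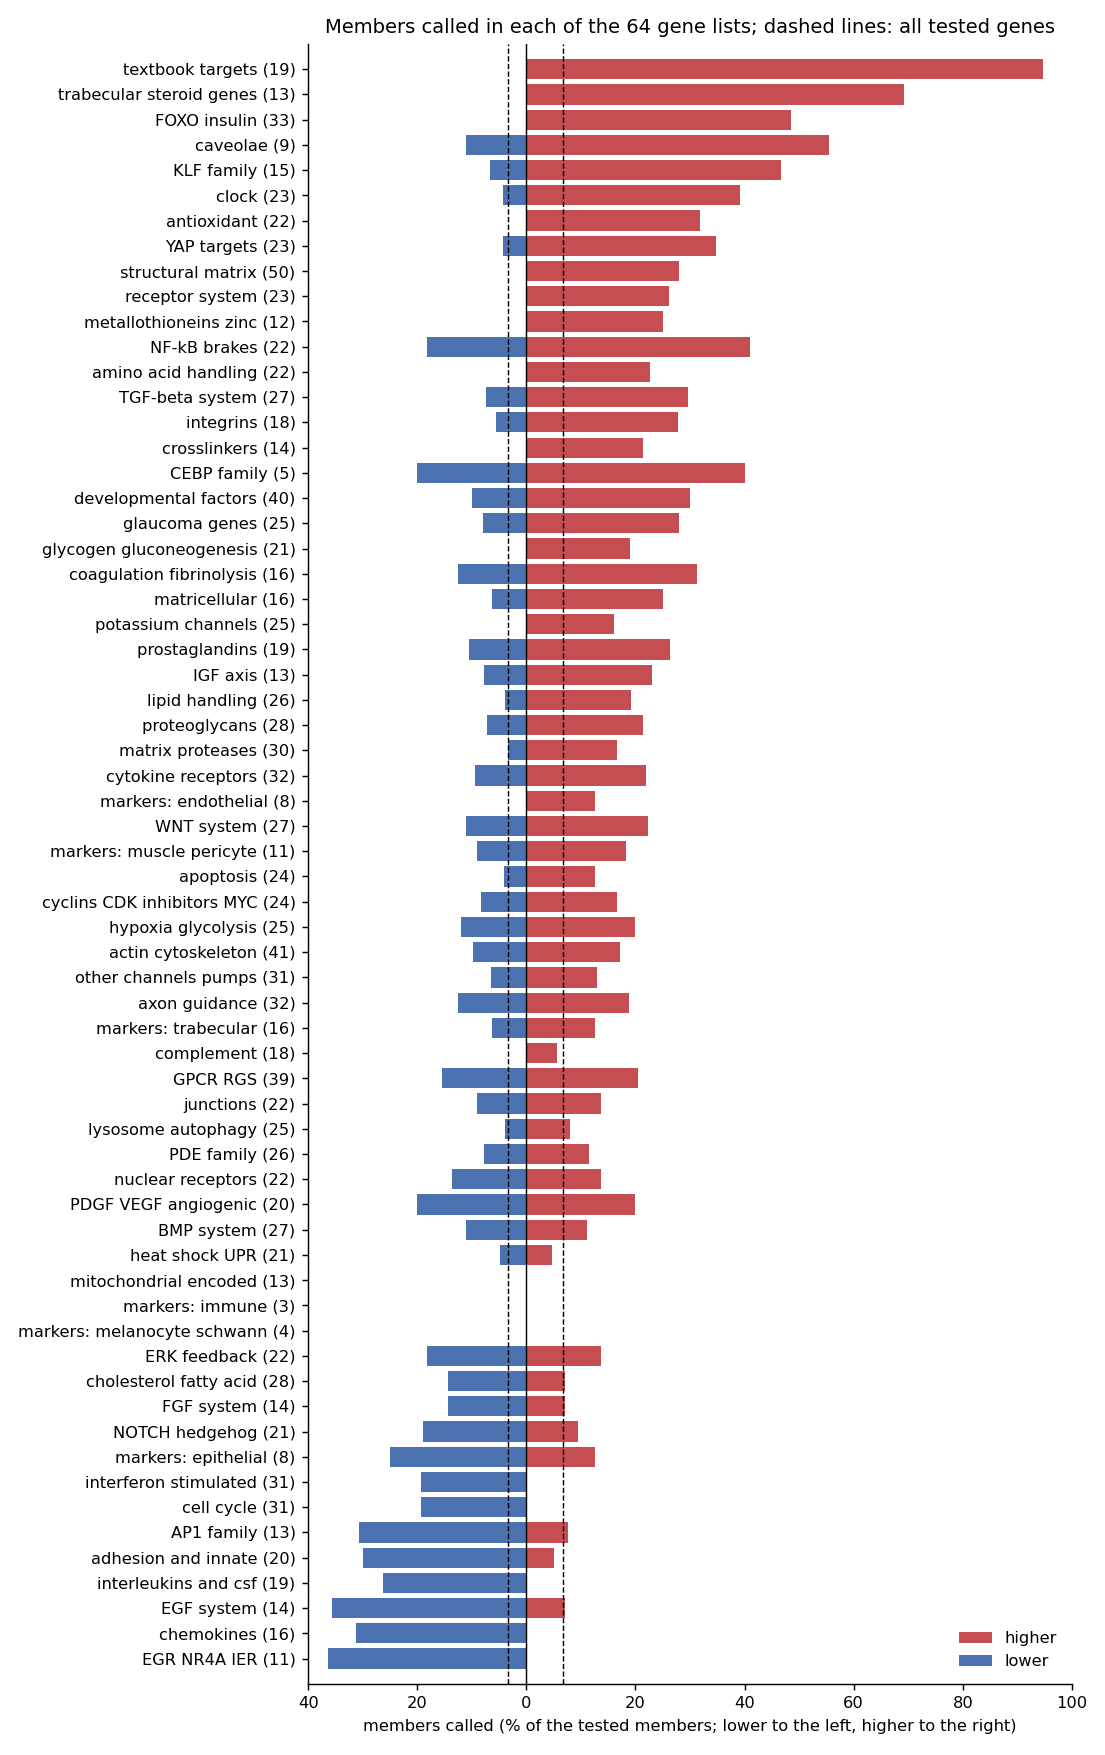
Share of tested members called higher (red, to the right) and lower (blue, to the left) in each of the 64 gene lists, in percent, with the number tested in brackets. Dashed lines mark 6.65% and 3.46%, the shares of all tested genes. Textbook targets (94.7% higher) and steroid genes of the tissue (69.2%) have the largest shares called higher. No interleukin or chemokine was called higher.

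The 30 largest rises and the 30 largest falls among called genes, with groups that did not overlap and a mean log2 CPM no lower than 1, held further genes of other roles. All 30 rises were stable. USP2, a deubiquitinase that stabilizes clock proteins, rose 4.70-fold, the creatine transporter SLC16A12 4.20-fold and SORBS2, an adaptor of actin and adhesion sites, 4.14-fold. The transcription factors HLX, IKZF2 and HIVEP3 rose 3.37-fold, 3.47-fold and 3.34-fold. HIPK2, a kinase that acts on p53, was among the more abundant ones. For HIPK2, vehicle 1 to 3 held 60.3, 66.5 and 71.0 CPM and DEX 1 to 3 held 223, 215 and 190.3 CPM, a rise of 3.17-fold (adjusted p = 1.64e-07). The thiamine transporter SLC19A2 rose 3.31-fold, the choline carrier FLVCR2 2.80-fold and NPR3, the clearance receptor for natriuretic peptides, 2.75-fold. Falls were smaller. TENT5C, a poly(A) polymerase, fell by 1.02 in log2 units (SE 0.09) from 9.93 ± 0.27 to 4.89 ± 0.38 CPM. The transcription factor POU2F2 fell by 0.88 (SE 0.08) and DIO2, which activates thyroid hormone, by 0.72 (SE 0.12). Of the 10 falls with the lowest p, the transcription factor CXXC5 and the polo-like kinase PLK2 fell by 0.62 and 0.55 from 49.1 ± 0.37 and 119 ± 4.3 CPM in vehicle. Of the 30 largest falls 23 were stable.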

How the data were processed

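RNA-seq of total RNA was measured in 3 DEX and 3 vehicle libraries. The authors deposited 1 value per gene and library, taken here to be expected counts from the values themselves: 49.3% to 53.4% of those above 0 were not whole. Which aligner, counter and build made them is not stated in the labels. The expected counts deposited by the authors were rounded, which moved library totals by at most 0.000918%. Of 37247 identifiers, 34620 were in GENCODE 29 (GRCh38), which gave positions and types.

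Genes were filtered with filterByExpr, scaled by TMM and tested with the quasi-likelihood test of edgeR 4.0.16 in R 4.3.3, two-sided, with Benjamini-Hochberg adjustment over 15133 genes and a threshold of 0.05. Every adjusted p in the text is from this fit unless another is named. CPM are TMM-adjusted, values after ± are SD (n = 3), and SE belongs to the log2 fold change. Library totals of 19326830 to 27337259 counts set the precision, and intervals cover counting error only. On simulated data with 50 changed genes per size the fit recovered 43, 48, 49 and 49 genes at 1.5, 2, 3 and 4-fold and called 20 of 14706 unchanged genes. The changed genes were drawn only above a floor on the vehicle level, and the counts of each gene were drawn independently. The simulation therefore did not cover changes in genes below that floor or differences shared by many genes of a library.

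Alternatives changed the filter, scaling, test (DESeq2 1.42.0, voom in limma 3.58.1), replicate block and GC and length correction, and left out each library. Members and gene lists were chosen with earlier results of these data known. Named were 5 markers, the 30 largest rises and falls with a mean log2 CPM of at least 1 and no overlap, the 10 lowest p in each direction, up to 10 called genes with vehicle means under 0.5 CPM, and up to 6 called members per list. BCL3, ZFP36, NFKB2, ZEB2, CBLB, DDIT4, FOXO1, PIK3R1, TRIB1, TRIB2, TGFBR3, LAMA4, CRISPLD2, TXNIP, MAP3K6, CMKLR2, FOXN3, OAS1, MX1, AKT1, AKT2, CXCL8 and CXCL1 were added after their values were seen. Some list members are counted but not reported here by name.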

Additional observations from a re-analysis of the deposited data

How the results depend on the processing

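Of 1530 genes called, 1047 were called in the same direction with DESeq2, 1485 with voom and 1437 after GC and length correction. The count of genes called lower (524) was 302 with DESeq2 and 904 after GC and length correction. Genes lower by more than 2-fold (20) were 67 with no filter on low counts, 11 with a stricter filter and 12 with DESeq2. Leaving out 1 library gave 983 to 1835 called genes, 700 to 1135 higher, 283 to 700 lower, 112 to 132 higher by more than 2-fold and 17 to 31 lower by more than 2-fold. Of 351 genes followed under each setting, calls were lost for 62 with DESeq2, 10 after GC and length correction, 8 with upper-quartile scaling, 3 with no filter and 34 to 66 without 1 library, and no called gene changed direction. Calls were gained for 3 with DESeq2, 1 with voom, 1 after GC and length correction, 4 with no filter and up to 3 without 1 library, among them IL6, CXCL8, CXCL1, FOS (higher), SGK1, OAS1 and NR3C1. AKT1, which was not called, stood at -0.0443 after GC and length correction and at -0.0441 with the block added, and above 0 in the other settings. The cause was not tested. With the replicate number as a block, 319 genes were called lower, 1028 calls of the fit without it were shared, and calls were lost for 52 of the 351 genes and gained for 5, those of IL6 (-0.66), CXCL8 (-0.48), CXCL1 (-0.52), FOS (0.34) and SGK1 (0.33). Libraries with the same number did not deviate together (correlations of -0.02, 0.04 and -0.11), so the numbers do not show a pairing.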
